A study of Mus musculus with 22 samples.

Results

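The genes described are 9 of myoblast fusion, the step at which mononucleated muscle cells join into multinucleated fibers. They are Mymk, Mymx, Cdh15, Jam2, Jam3, Myof, Dysf, Adgrb1 and Adgrb3. They were chosen by name from what is known of fusion, with no cut on measured values but with earlier results of these data known. They are 9 of 43430 genes in the files. The samples were 22 RNA libraries of muscle stem cells sorted by green fluorescence from hindlimb muscle of mice of the genotype Pax7-zsgreen, in which the promoter of Pax7, the stem cell transcription factor gene, drives the fluorescent protein ZsGreen. Muscle was uninjured (3 libraries at ZT4 and 3 at ZT16), or was taken 1 day (4 and 4) or 3 days (4 and 4) after an injection of cardiotoxin, which kills muscle fibers while sparing the stem cells. ZT is zeitgeber time, in hours after lights on, and the labels attach it to the injury without giving the hour of collection. All mice were perfused with cold saline and a mild paraformaldehyde fixative that was quenched with glycine, so controls and injured muscle share the fixation. The labels give neither strain nor age, and do not state that replicates are separate mice, so p-values measure the spread between these libraries.

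Fusion is carried out by a pair of muscle proteins at the cell surface. Myomaker, encoded by Mymk, spans the membrane several times and brings the outer layers of adjoining membranes to mix, and myomixer, a micropeptide encoded by Mymx, is needed for the fusion pore. Before that step, cells recognise each other through cadherins and immunoglobulin-type adhesion molecules. Receptors for phosphatidylserine signal to Rac, and ferlins, calcium-binding membrane proteins, act in membrane repair and vesicle traffic. Quiescent stem cells are held apart from this program, which is switched on with myogenin, the transcription factor encoded by Myog.

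In the sorted cells, the fusion genes followed 4 courses. Mymk and Mymx were present before injury, Mymx at a low level, fell nearly to nothing on day 1 and rose far above the uninjured level on day 3. Myof and Dysf rose on day 1 and rose again on day 3. Cdh15 and Jam3 fell on day 1 and rose from there to day 3. Jam2 was lower on both days than in uninjured cells, and Adgrb1 and Adgrb3 had hardly any counts in any state.

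Mymx is one of the members whose level differed most between the days, and its micropeptide is short enough to be read whole. The coding sequence shown here is shared by transcripts ENSMUST00000113529 and ENSMUST00000178858, which together held most of its counts. It lies on GRCm38 at chr17:45601417-45601671, minus strand, and has 255 bases, or 84 codons before the stop. The capitals mark the start and stop codons.
Mymx coding sequence: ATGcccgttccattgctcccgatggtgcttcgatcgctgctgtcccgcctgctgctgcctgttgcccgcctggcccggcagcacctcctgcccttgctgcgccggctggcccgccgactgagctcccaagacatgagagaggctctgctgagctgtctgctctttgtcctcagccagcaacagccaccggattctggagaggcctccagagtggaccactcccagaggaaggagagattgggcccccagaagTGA

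Levels between libraries are given in CPM (counts relative to library size, scaled by the TMM method), and levels between genes in TPM, the deposited measure that divides by transcript length. Library totals ranged from 5965957 to 9751536 estimated counts. Changes are log2 fold changes ± standard error (SE) from 1 edgeR quasi-likelihood fit of all 22 libraries, with Benjamini-Hochberg adjustment over 15084 tested genes and 0.05 as the threshold. Of the 9 members, 7 passed the filter on low counts, and Adgrb1 and Adgrb3 did not. In bulk RNA, fewer cells of a type and less RNA per cell cannot be told apart.

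The label of the cells was checked against markers. Pax7 was at 322 ± 28.3 CPM (SD, n = 6) in uninjured, 58.2 ± 11.3 (n = 8) in day 1 and 22.6 ± 3.12 (n = 8) in day 3 libraries. All 10 listed stem cell markers were detected in each of the 6 groups, but their summed level was lower after injury, at 7610 to 11300 CPM in uninjured, 2630 to 3780 in day 1 and 2310 to 2710 in day 3 libraries. On day 3, 9 of the 10 were lower than in uninjured cells and 1, Itga7, was higher (median −2.75). All 10 markers of newly formed myocytes were higher on day 3 than in uninjured cells (median 4.10), with sums of 364 to 1030 CPM in uninjured, 303 to 453 in day 1 and 3050 to 5440 in day 3 libraries. The 18 markers of mature myofibers summed to 1110 to 2560 CPM in uninjured, 313 to 1170 in day 1 and 3240 to 5320 in day 3 libraries. On day 1, 15 were lower than in uninjured cells and 3 did not pass (median −1.22). On day 3, 8 were higher, 7 were lower and 3 did not pass (median 0.19). Eno3 held a large part of the day 3 sum (1825 ± 117 CPM, SD, n = 8). Libraries of injured muscle also held RNA of leukocytes. All 14 macrophage and monocyte markers were detected in every group, with a summed level of 18.4 to 108 CPM in uninjured, 1530 to 4840 in day 1 and 337 to 1200 in day 3 libraries. The 8 neutrophil markers summed to 0 to 3.71, 29.2 to 308 and 6.40 to 16.5 CPM in the same states, and the neutrophil genes Ly6g and Ngp had no counts in any group except day 3 at ZT4. Endothelial markers summed to 117 to 213 CPM in uninjured, 41.3 to 114 in day 1 and 19.2 to 33.9 in day 3 libraries. Most of the uninjured sum was Tek (107 ± 24.4 CPM, SD, n = 6), which fell to 14.1 ± 2.48 (n = 8) on day 1. Of the 9 tested endothelial markers, Tek fell on day 1, Emcn rose and 7 did not pass (median 0.30), and on day 3 against uninjured cells 6 fell and 3 did not pass. Fibro-adipogenic markers summed to 2770 to 3780 CPM in uninjured, 531 to 836 in day 1 and 1530 to 3380 in day 3 libraries, sums that were mostly Col3a1 in uninjured libraries. Of 9 tested, 6 were higher on day 3 than in uninjured cells and 2 were lower (median 2.13), and 6 rose and 1 fell from day 1 to day 3 (median 1.28), as most fusion genes did. Pdgfra was among them, at 3.74 ± 0.68 over uninjured cells, as was Col1a1 at 3.09 ± 0.48 (edgeR adjusted p = 5.80e-05 and 1.53e-05). Mural markers lay between 252 and 1220 CPM and Schwann markers between 75 and 1480, each list highest in an uninjured library. The part of these cell types in the results on fusion genes was not tested.

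**Figure D1:**
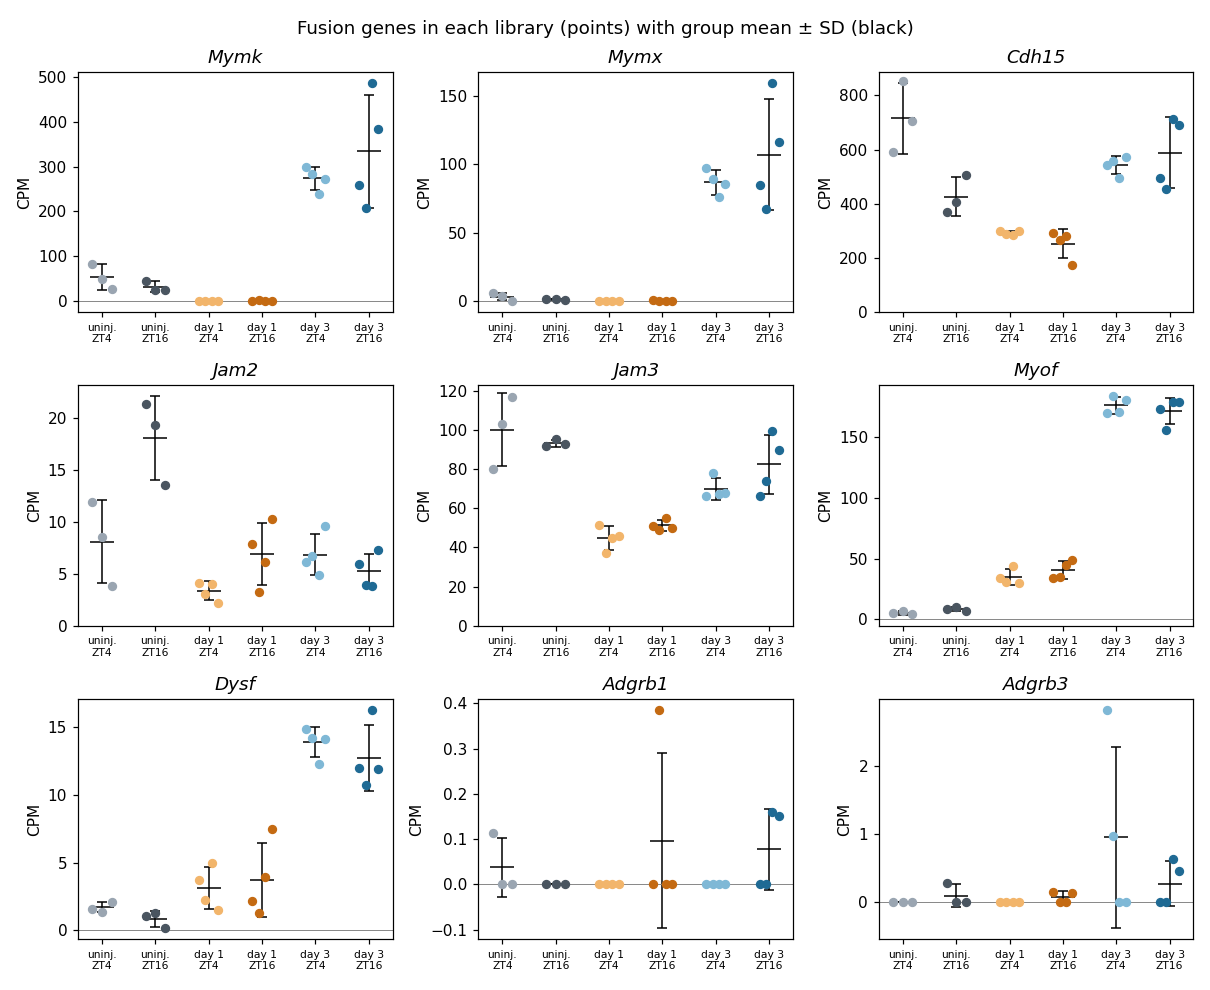
Level of each fusion gene in CPM (linear axis, own scale per panel) in the 6 groups. Points are libraries, and the black dash and bars are the group mean ± SD. Mymk and Mymx lie close to 0 in all day 1 libraries and are highest in day 3 libraries, while Cdh15 and Jam3 lie lowest on day 1.

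Compared with uninjured cells, 7 of the 7 tested members changed on day 1, 2 up and 5 down. In this comparison 75.2% of all tested genes were called, 34.6% up and 40.6% down, and the members' calls are read against that share. The median log2 change of the tested members was −1.02, against −0.13 over all tested genes. On day 3, 4 members were higher than in uninjured cells, 2 were lower and Cdh15 did not pass, with a background of 76.9% called, 37.9% up and 39.1% down. The median of the members was 2.87, against −0.03 over all tested genes. From day 1 to day 3, 6 of 7 rose and none fell, where 55.4% of all genes were called, 26.7% up and 28.7% down. Jam2 was the member that did not pass, and the median was 1.97 against −0.02. The day 1 and day 3 comparisons share their uninjured libraries.

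**Figure D2:**
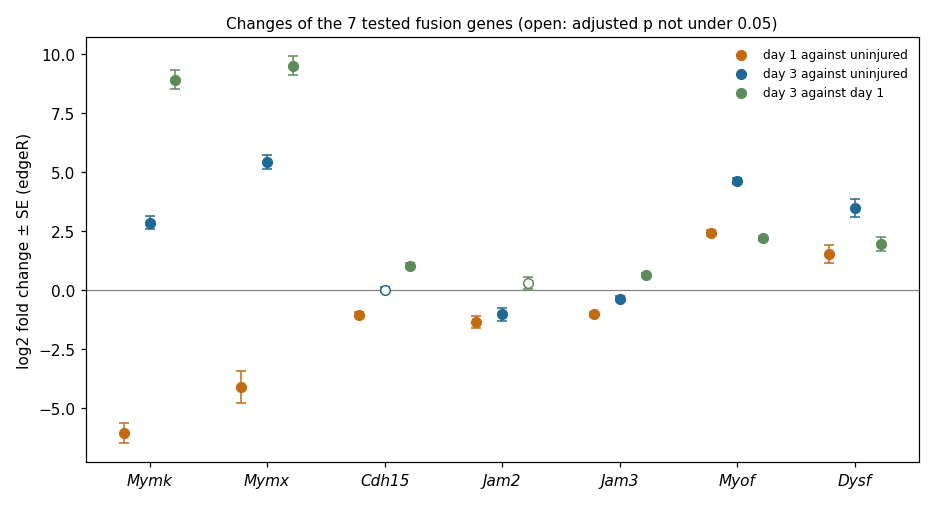
Log2 fold changes ± SE of the 7 tested fusion genes in 3 comparisons of states, from edgeR. Filled points have an adjusted p under 0.05 and open points do not. Mymk and Mymx have the widest changes on day 1 against uninjured cells and on day 3 against day 1, while on day 3 against uninjured cells Myof (4.64) and Dysf (3.50) lie above Mymk (2.87). Myof and Dysf are above 0 in each comparison.

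Mymk (ENSMUSG00000009214, chr2:27061636-27072179 on the minus strand of GRCm38, protein-coding) had counts in each uninjured library. At ZT4 the uninjured libraries stood at 83.3, 49.9 and 26.4 CPM, and at ZT16 at 45.7, 25.9 and 23.7 CPM. The counts behind these values were 165 to 738 per library. ZT4 replicate 1 was the highest and ZT16 replicate 3 the lowest, and the ranges of the times overlapped.

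On day 1 Mymk stood at 0.68, 0.63, 0 and 0.55 CPM at ZT4 and at 0.15, 1.54, 1.14 and 0.14 CPM at ZT16. That is 36 counts over 8 libraries, or a pooled 0.634 CPM with an exact 95% Poisson interval of 0.444 to 0.877 that covers counting error only. The highest day 1 library lay far below the lowest uninjured one. The fall was −6.04 ± 0.42 on the log2 scale, 66.0-fold lower by edgeR (adjusted p = 3.55e-10), though a fitted fold that rests on so few counts is imprecise.

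On day 3 Mymk stood at 298, 284, 239 and 272 CPM at ZT4 and at 258, 208, 487 and 384 CPM at ZT16. The lowest of the 8 day 3 libraries was above the highest of the 6 uninjured ones. Relative to uninjured cells the gene rose by 2.87 ± 0.28, a 7.32-fold increase (edgeR adjusted p = 3.66e-08). From day 1 the rise was 8.92 ± 0.40 (edgeR adjusted p = 2.62e-12). Ordered by mean level, the groups ran from day 3 ZT16 (334 ± 126 CPM, SD, n = 4) and day 3 ZT4 (273 ± 25.2) through uninjured ZT4 (53.2 ± 28.6, n = 3) and ZT16 (31.8 ± 12.1) to day 1 ZT16 (0.744 ± 0.711, n = 4) and ZT4 (0.466 ± 0.315). Within each state the ranges of ZT4 and ZT16 overlapped.

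Mymx (ENSMUSG00000079471, chr17:45600971-45602102, minus strand) was much scarcer before injury. Uninjured libraries held 52, 31 and 2 counts at ZT4, or 5.87, 3.84 and 0.32 CPM, and 9, 12 and 8 counts at ZT16, or 1.29, 1.71 and 1.14 CPM. The library with the lowest Mymk at ZT4, replicate 3, was also the lowest in Mymx. On day 1 there were 10 counts in 8 libraries, pooled at 0.176 CPM with an exact Poisson interval of 0.0844 to 0.324. At ZT4 of day 1 a single count came from replicate 2, and at ZT16 the libraries had 3, 3, 1 and 2 counts, or 0.46, 0.39, 0.13 and 0.28 CPM. The lowest uninjured library, at 0.32 CPM, thus lay within the day 1 range. The change on day 1 was −4.08 ± 0.68 (edgeR adjusted p = 1.82e-05), and with so few counts its size is imprecise. It was −4.89 without day 1 ZT4 replicate 2, the library with the single ZT4 count, −5.97 with ZT4 libraries alone and −2.04 with ZT16 libraries alone, and it passed in each.

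On day 3 Mymx reached 97.5, 89.0, 75.9 and 85.4 CPM at ZT4 and 84.9, 67.2, 160 and 117 CPM at ZT16. No library overlapped with those of the other states. The rise was 5.44 ± 0.31 over uninjured cells, or 43.3-fold (edgeR adjusted p = 1.23e-12), and 9.52 ± 0.41 over day 1 (edgeR adjusted p = 7.83e-14). The latter was 10.36 without day 1 ZT4 replicate 2 and ranged from 8.39 to 10.68 over the alternatives, which takes in the range of Mymk, 8.64 to 9.22. Day 3 ZT16 replicates 3 and 4 were the highest 2 libraries for both Mymk and Mymx.

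Mymk and Mymx were not in the same proportion before and after injury. In TPM, Mymx was 13.3, 14.5 and 2.35% of Mymk in the uninjured libraries at ZT4 and 5.37, 12.7 and 9.44% at ZT16. In the day 3 libraries it was 61.6, 59.3, 61.7 and 61.2% at ZT4 and 61.5, 61.2, 63.4 and 59.2% at ZT16. The groups did not overlap, and the day 3 libraries lay close together, between 59.2 and 63.4%. The means were 9.63 ± 4.87% (SD, n = 6) and 61.1 ± 1.36% (n = 8), a difference of 51.5 percentage points (exact permutation test, two-sided, p = 0.000666). With expected counts in place of TPM the means were 5.03 and 32.0%. This ratio was chosen after its values were seen, so its p is a description of a noted pattern.

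**Figure D3:**
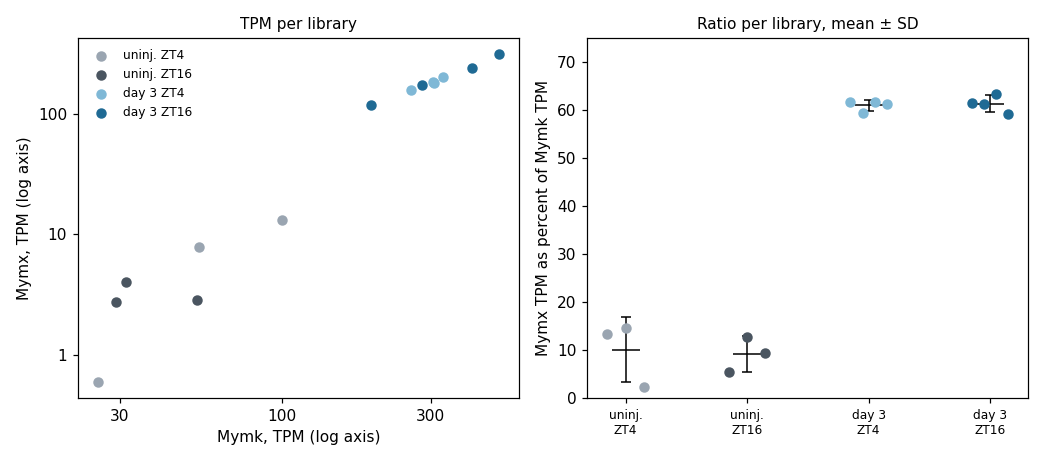
Left, Mymx against Mymk in TPM for the 14 uninjured and day 3 libraries (both axes log). Right, Mymx TPM as percent of Mymk TPM in each library, with group mean ± SD. Day 3 libraries lie between 59.2 and 63.4%, and uninjured libraries between 2.35 and 14.5%.

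In uninjured cells the order of the libraries by Mymk went with that by Myog. Myog stood at 533, 323 and 96.6 CPM at ZT4 and 372, 220 and 172 CPM at ZT16 in these libraries. At each time the order was the same as for Mymk. Mymx had the Myog order at ZT4 but not at ZT16, where its replicate 2 was the highest (1.29, 1.71 and 1.14 CPM). The 10 markers of newly formed myocytes, Myog among them, summed to 1030, 767 and 389 CPM at ZT4 and 605, 452 and 364 CPM at ZT16. That is again the order of Myog, which was a large part of most of these sums, so it is no separate observation. The 18 markers of mature myofibers summed to 1110, 1540 and 1560 CPM at ZT4 and 1920, 2260 and 2560 CPM at ZT16. This is the reverse of the Myog order at each time, though ZT4 replicates 2 and 3 were nearly equal. Myh3, the embryonic myosin heavy chain gene of new fibers, was at 1.56 ± 1.95 CPM (SD, n = 6) in these libraries and at 297 ± 80.8 (n = 8) on day 3. Which cells the uninjured Mymk counts come from was not tested.

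**Figure D4:**
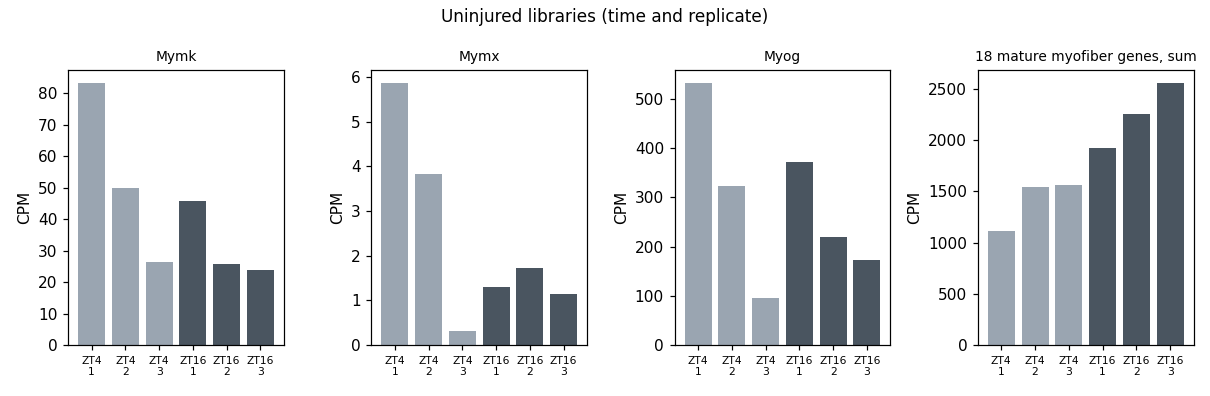
Levels in the 6 uninjured libraries in CPM (linear axes from 0), by time and replicate. Mymk and Myog have the same order of libraries within each time, with ZT4 replicate 1 highest, and the sum of the 18 mature myofiber genes is lowest in that library. Mymx has the order of Myog at ZT4 but not at ZT16.

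Of the adhesion members, Cdh15 and Jam3 started from high levels. Cdh15 (ENSMUSG00000031962, chr8:122847966-122867397, plus strand) encodes M-cadherin, the cadherin of stem cells and myoblasts, and was the most abundant member per length in uninjured cells. Its uninjured libraries stood at 590, 853 and 704 CPM at ZT4 and at 368, 406 and 505 CPM at ZT16, and the times did not overlap. On day 1 it stood at 298, 290, 286 and 300 CPM at ZT4 and 291, 265, 280 and 174 CPM at ZT16, all below each uninjured library. The change was −1.02 ± 0.12 on the log2 scale, 2.03-fold lower (edgeR adjusted p = 4.49e-08). Day 3 libraries stood at 542, 558, 496 and 574 CPM at ZT4 and 496, 455, 713 and 690 CPM at ZT16, within the uninjured range and above all day 1 libraries. The rise from day 1 was 1.05 ± 0.11 (edgeR adjusted p = 2.96e-08).

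For Cdh15 the comparison of day 3 with uninjured cells depended on the time. Over both times the change was 0.03 ± 0.12 (edgeR adjusted p = 0.81). With ZT4 libraries alone it was −0.31 (adjusted p = 0.0167), and with ZT16 libraries alone 0.56 (adjusted p = 0.0291). The test of that difference gave a change in the ZT16 to ZT4 effect of 0.86 ± 0.23 from uninjured to day 3 (edgeR adjusted p = 0.0167). Cdh15 was the 1 of 7 tested members called in this test, against 12.8% of all genes. The call was lost without uninjured ZT4 replicate 2 (0.73, adjusted p = 0.0546) and without uninjured ZT16 replicate 1 (0.77, adjusted p = 0.0581). It was also lost without the 4 day 3 libraries with the most genes detected (0.58, adjusted p = 0.227). Without uninjured ZT16 replicates 1 and 3 together, which left 1 library in that group, the change was 0.96.

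Jam3 (ENSMUSG00000031990, chr9:27097384-27155421, minus strand), a junctional adhesion molecule gene, was also well expressed before injury. Uninjured libraries stood at 80.3, 103 and 117 CPM at ZT4 and 91.8, 95.4 and 92.8 CPM at ZT16. Day 1 libraries stood at 51.7, 36.9, 44.8 and 46 CPM at ZT4 and 51.1, 49.0, 55.1 and 49.9 CPM at ZT16, below all uninjured ones. The day 1 change was −1.01 ± 0.10 (edgeR adjusted p = 1.10e-09). Day 3 libraries, at 66.4, 78.0, 67.4 and 68.1 CPM at ZT4 and 66.6, 74.2, 99.6 and 89.9 CPM at ZT16, were above all day 1 libraries and reached into the uninjured range. Jam3 rose from day 1 by 0.66 ± 0.09 (edgeR adjusted p = 1.15e-06) and remained below uninjured cells by a log2 change of −0.35 ± 0.10 (edgeR adjusted p = 0.00211). The last call was lost without uninjured ZT16 replicate 2 (−0.22, adjusted p = 0.0611), with no filter on low counts (−0.22, adjusted p = 0.0804) and with ZT16 libraries alone (−0.09, adjusted p = 0.577).

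Jam2 (ENSMUSG00000053062, chr16:84774123-84825928, plus strand), which encodes the binding partner of the Jam3 protein, was far scarcer. Uninjured libraries stood at 11.9, 8.54 and 3.85 CPM at ZT4 and 21.4, 19.3 and 13.5 CPM at ZT16, so the times did not overlap. Day 1 libraries stood at 4.09, 3.00, 4.04 and 2.21 CPM at ZT4 and 7.89, 3.22, 6.09 and 10.2 CPM at ZT16, overlapping with the low uninjured libraries. Jam2 changed by −1.34 ± 0.27 on day 1 (edgeR adjusted p = 8.93e-05). On day 3 it stood at 6.12, 6.67, 4.90 and 9.58 CPM at ZT4 and 5.95, 3.90, 3.84 and 7.24 CPM at ZT16, a change of −1.02 ± 0.26 from uninjured cells (edgeR adjusted p = 0.00128). That call was lost with ZT4 libraries alone (−0.16, adjusted p = 0.725) and with offsets for effective transcript length (−0.48, adjusted p = 0.20). From day 1 to day 3 the change was 0.32 ± 0.26 and did not pass (edgeR adjusted p = 0.299), although with ZT4 libraries alone it was 1.06 (adjusted p = 0.032).

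The ferlins rose in steps. Myof (ENSMUSG00000048612, chr19:37899036-38043577, minus strand) encodes myoferlin, the ferlin of myoblasts. Uninjured libraries stood at 5.08, 7.30 and 4.17 CPM at ZT4 and 8.74, 10.4 and 7.10 CPM at ZT16, from 26 to 73 counts each. Day 1 libraries stood at 33.7, 30.5, 44.3 and 29.9 CPM at ZT4 and 34, 34.6, 44.9 and 49.3 CPM at ZT16. On day 3 the libraries stood at 170, 184, 171 and 181 CPM at ZT4 and 174, 156, 179 and 179 CPM at ZT16. The 3 states did not overlap. The gene rose 5.36-fold on day 1 (2.42 ± 0.13, edgeR adjusted p = 2.63e-14) and 24.9-fold by day 3 (4.64 ± 0.14, edgeR adjusted p = 5.10e-19), with 2.21 ± 0.10 between the days (edgeR adjusted p = 1.11e-14). At 174 ± 8.70 CPM (SD, n = 8) its day 3 libraries were close together, while Mymk varied from 208 to 487 CPM in the same libraries.

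Dysf (ENSMUSG00000033788, chr6:84008590-84211060, plus strand) encodes dysferlin, the membrane repair ferlin whose loss causes muscular dystrophy. Uninjured libraries held 1 to 14 counts and stood at 1.58, 1.36 and 2.08 CPM at ZT4 and 1.00, 1.28 and 0.14 CPM at ZT16. Day 1 libraries stood at 3.68, 2.21, 4.98 and 1.52 CPM at ZT4 and 2.12, 1.29, 3.94 and 7.48 CPM at ZT16, overlapping with uninjured ones. The day 1 change was 1.53 ± 0.38 (edgeR adjusted p = 0.000965), and it lost its call with offsets for effective transcript length (0.91, adjusted p = 0.0539). On day 3 Dysf stood at 14.9, 14.2, 12.3 and 14.2 CPM at ZT4 and 12, 10.8, 16.3 and 11.9 CPM at ZT16, above all other libraries. The rise was 3.50 ± 0.38 over uninjured cells (edgeR adjusted p = 8.44e-09) and 1.97 ± 0.30 over day 1 (edgeR adjusted p = 5.23e-06).

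Because Myof and Dysf moved together, their promoter windows are shown, each the 250 bases before a RefSeq start (GRCm38.p6) on the strand of the gene. The E-box, CANNTG, is the motif of myogenic factors such as MYOD1 and myogenin. It reads the same on both strands, so a search of one covers both, and CAGCTG, a form of it that is included in its count, was also counted apart. Among 32851 such windows, 66.2% held CANNTG and 13.0% held CAGCTG. The Myof window (chr19:38043578-38043827, minus strand) and both Dysf windows (chr6:84008348-84008597 and chr6:84019136-84019385, plus strand) held neither, so no letters are in capitals. The Cdh15 window held 3 CANNTG and the Adgrb3 window 2, with no CAGCTG. Those 4 genes are the members matched in the table. A match is a description of letters, and their absence from these windows says nothing of sites elsewhere.
Myof window: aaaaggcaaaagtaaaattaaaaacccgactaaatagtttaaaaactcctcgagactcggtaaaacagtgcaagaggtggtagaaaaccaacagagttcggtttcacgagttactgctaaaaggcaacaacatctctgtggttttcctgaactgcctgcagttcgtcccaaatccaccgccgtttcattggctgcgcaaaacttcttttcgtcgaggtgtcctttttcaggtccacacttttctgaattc
Dysf upstream window: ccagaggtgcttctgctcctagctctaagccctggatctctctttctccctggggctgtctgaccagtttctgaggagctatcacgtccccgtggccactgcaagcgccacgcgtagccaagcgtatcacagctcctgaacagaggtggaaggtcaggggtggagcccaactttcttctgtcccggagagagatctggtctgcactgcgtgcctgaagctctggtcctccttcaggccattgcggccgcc
Dysf downstream window: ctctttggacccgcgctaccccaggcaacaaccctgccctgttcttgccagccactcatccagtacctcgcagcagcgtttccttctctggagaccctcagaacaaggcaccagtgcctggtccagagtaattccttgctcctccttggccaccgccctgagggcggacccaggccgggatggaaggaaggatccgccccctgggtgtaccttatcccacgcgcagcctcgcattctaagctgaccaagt

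Most of the deposited Dysf counts were split between transcripts of a pair of annotated start regions. Transcripts from the upstream start (4 in the files) held 32.3 of its uninjured counts, or 58.7%, 42.7% of day 1 and 28.1% of day 3 counts. Those from the downstream start (3 transcripts) held 33.2, 51.4 and 67.7%, and 4 transcripts that start further inside the gene held the remaining 8.09, 5.90 and 4.15%. The uninjured shares rest on 55 counts in 6 libraries, and the split is the quantifier's estimate, so they are given with no test.

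Adgrb1 and Adgrb3 encode BAI1 and BAI3, adhesion G protein-coupled receptors that act through Elmo and Dock proteins in fusion. Adgrb1 (ENSMUSG00000034730, chr15:74516195-74589465, plus strand) had 1 count in uninjured, 3 in day 1 and 2 in day 3 libraries. The pooled level in uninjured cells was 0.0226 CPM, with an exact Poisson upper bound of 0.126 CPM. Adgrb3 (ENSMUSG00000033569, chr1:25067476-25829707, minus strand) had 2 counts in uninjured and 2 in day 1 libraries, with upper bounds of 0.163 and 0.127 CPM. At this depth neither gene can be told from 0 in uninjured or day 1 cells, and the main fit gives no fold.

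On day 3 Adgrb3 had 32 counts, in 4 of 8 libraries. They were 18 and 7 in ZT4 replicates 1 and 2 and 4 and 3 in ZT16 replicates 3 and 4. These are the 4 day 3 libraries with the most genes detected, 22992, 20578, 18720 and 20194, against 17045 to 17942 in the others. The other 4 had no count, with a pooled exact Poisson upper bound of 0.113 CPM. With no filter on low counts, Adgrb3 passed on day 3 against uninjured cells (3.62 ± 1.22, edgeR adjusted p = 0.00821). It also passed against day 1 (3.75 ± 1.14, edgeR adjusted p = 0.00442). These folds are imprecise, with 2 counts in uninjured and 2 in day 1 libraries. Each of the 32 counts fell on a transcript annotated as a retained intron, none on the protein-coding ones, with ENSMUST00000189254 holding 50.0% of them. Whether these counts and the number of genes detected are related was not tested.

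**Figure D5:**
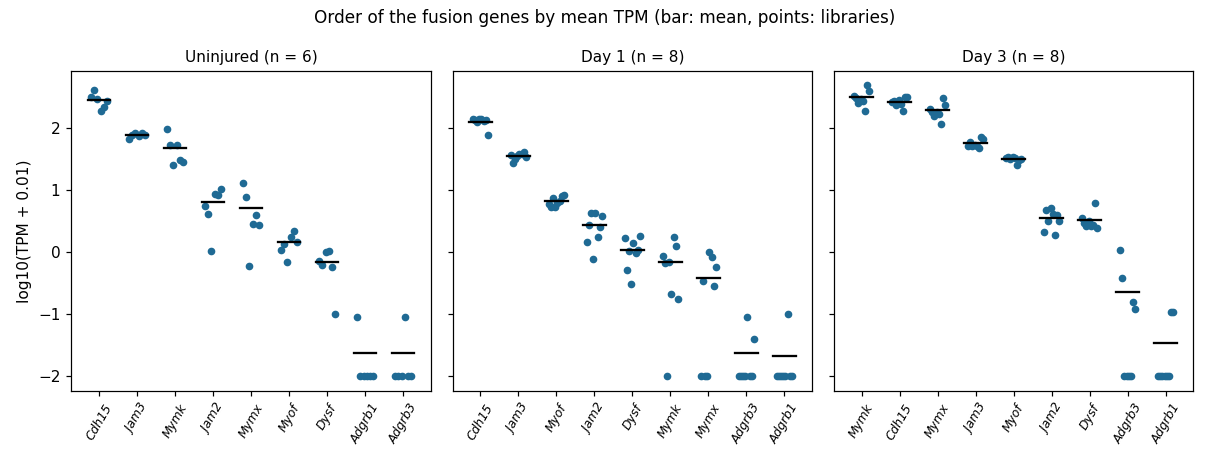
Members ordered by mean TPM in each state, as log10(TPM + 0.01). Points are libraries and bars are means, and a gene with no counts lies at −2. Cdh15 and Jam3 lead in uninjured and day 1 libraries, and Mymk, Cdh15 and Mymx lead on day 3.

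Per length, the members changed places. In uninjured cells the order by mean TPM was Cdh15 (289 ± 79.0, SD, n = 6), Jam3 (78.2 ± 6.06), Mymk (48.9 ± 27.8), Jam2 (6.45 ± 3.49), Mymx (5.23 ± 4.62), Myof (1.44 ± 0.53) and Dysf (0.68 ± 0.35). Ranges overlapped between Jam3 and Mymk, and between each neighbouring pair from Jam2 down to Dysf, so those positions are not set apart by the spread. On day 1 Cdh15 (129 ± 21.0 TPM, n = 8), Jam3 (35.7 ± 4.42) and Myof (6.77 ± 1.20) led without overlap, and Mymk (0.70 ± 0.59) and Mymx (0.38 ± 0.39) stood sixth and seventh. On day 3 Mymk (323 ± 93.2 TPM, n = 8), Cdh15 (270 ± 44.8) and Mymx (197 ± 59.1) came first, with overlap between neighbours. They were followed without overlap by Jam3 (57.5 ± 8.25) and Myof (32.1 ± 2.90), and then by Jam2 (3.58 ± 1.18) and Dysf (3.31 ± 1.26), which overlapped. FPKM gave the same order for these 7.

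The leading transcript of each gene was compared between states in libraries with at least 20 counts of the gene, in 11 exact permutation tests, and none passed after adjustment (3 had an unadjusted exact p under 0.05). Cdh15 has 1 transcript in the files. Mymk counts lay on ENSMUST00000009358 in all uninjured and day 3 libraries. For Myof, the leading ENSMUST00000041475 held 100% in every injured library, and in uninjured ones 50% in 4 libraries and 100% in 2, with the rest on ENSMUST00000172095, which has the same length of 7094 bases (difference of 33.3 points, exact permutation p = 0.03, adjusted p = 0.11). How reads were divided between these transcripts is the quantifier's estimate. The Jam3 leading transcript, ENSMUST00000034472, held 91.3 ± 1.53% on day 3 and 93.9 ± 2.30% on day 1 (SD, n = 8 and 8, exact permutation p = 0.0205, adjusted p = 0.11). This difference passed without day 1 ZT4 replicate 4 (−3.28 points, exact permutation, adjusted p = 0.00684). The remainder of Jam3 lay on ENSMUST00000167074, annotated as a retained intron.

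The ZT16 and ZT4 libraries were compared within each state. For injured muscle this is a comparison of the time of injury, and for uninjured muscle, which had none, only of the labelled times. In uninjured cells 3 of 7 tested members differed between ZT16 and ZT4, with 17.7% of all genes called. Cdh15 was lower at ZT16 (−0.75 ± 0.18, edgeR adjusted p = 0.00504), Myof was higher (0.65 ± 0.21, edgeR adjusted p = 0.0358) and Jam2 was higher (1.14 ± 0.40, edgeR adjusted p = 0.0476). Without ZT16 replicates 1 and 3 together, which left 1 library at that time, the Cdh15 change was −0.84. The TMM factors of that pair were 0.948 and 0.949, against 1.082 for replicate 2. The raw counts set replicate 2 apart as well. Their chi-square per degree of freedom was 67.9 and 66.0 between replicate 2 and replicates 1 and 3, and 17.7 between replicates 1 and 3. Myof lost its call without ZT4 replicate 1 (adjusted p = 0.113) or 3 (0.14), or ZT16 replicate 1 (0.0849) or 2 (0.164), and with the uninjured libraries alone (0.399). Jam2 lost its call without ZT4 replicate 2 (adjusted p = 0.0936) or 3 (0.181), or ZT16 replicate 1 (0.154) or 2 (0.0963), and with the uninjured libraries alone (0.13). Mymk (−0.75 ± 0.40, edgeR adjusted p = 0.216) and Mymx (−1.34 ± 0.57, edgeR adjusted p = 0.109) did not pass. Both passed with no filter on low counts (Mymk −0.78, adjusted p = 2.57e-05, and Mymx −1.37, adjusted p = 0.000622). The sizes of these changes hardly differed from those of the main fit, while the p-values fell, and why they fell was not tested. For each of these genes the levels of the uninjured ZT4 and ZT16 libraries overlapped, so a time effect on them is not established. Mymx also passed in DESeq2 (−1.32, adjusted p = 0.0401), which called 4 members in this comparison, and without ZT4 replicate 3, the library with 2 counts (−1.81, adjusted p = 0.00391).

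After injury no member passed the test between the times. On day 1, 0 of 7 passed in edgeR, DESeq2 or limma voom, with 0% of all genes called by edgeR, and 1 member, Jam2, had an unadjusted p under 0.05 (1.03 ± 0.37, edgeR adjusted p = 0.645). On day 3, 0 of 7 passed in any of the same 3 tools, 0% of all genes were called by edgeR and no member had an unadjusted p under 0.05. Mymk differed by 0.29 ± 0.32 and Mymx by 0.30 ± 0.28 between ZT16 and ZT4 of day 3, with ZT16 libraries spread more widely than ZT4 ones. Whether the time effect itself differed from that of uninjured cells was tested as well. On day 1 no member passed in edgeR or limma voom and 1, Mymx, passed in DESeq2 (4.08, adjusted p = 0.0201), where edgeR called 7.46% of all genes. By edgeR 2 members had an unadjusted p under 0.05 (Mymx 3.93 ± 1.69, edgeR adjusted p = 0.176, and Cdh15 0.53 ± 0.23, edgeR adjusted p = 0.185). Mymx passed there without uninjured ZT4 replicate 3 (4.40, adjusted p = 0.0305). On day 3, besides Cdh15, Jam2 came nearest (−1.53 ± 0.53, edgeR adjusted p = 0.0606), and it passed without uninjured ZT4 replicate 1 (adjusted p = 0.0264) or day 3 ZT16 replicate 4 (adjusted p = 0.048). Mymx (1.64 ± 0.63, edgeR adjusted p = 0.0946) passed without uninjured ZT4 replicate 3 (adjusted p = 0.0036), and Myof (−0.69 ± 0.25, edgeR adjusted p = 0.0749) without uninjured ZT4 replicate 2 (adjusted p = 0.0229).

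For each tested member, the 3 genes with the highest Pearson r of log2 CPM over all 22 libraries were named. The r values mostly reflect differences between the 3 states, and libraries of a state share them. Mymk was nearest to Myog (r = 0.987), to Actc1, the actin gene of early muscle (0.987), and to Cdkn1c, a cell cycle inhibitor gene (0.978). Mymx was nearest to Chd3 (0.986), Pdlim7 (0.984) and Svbp (0.983), and its r with Mymk was 0.912. Myof was nearest to Trp53i11 (0.991), to Cavin4, a muscle caveola gene (0.990), and to Mtch2 (0.989), and its r with Dysf was 0.895. Dysf was nearest to Pkig (0.963), Zc3hc1 (0.947) and Atp5o (0.946), and Cdh15 to Dap (0.931), Maged2 (0.927) and Wls (0.927). Jam3 was nearest to Paxx (0.966), Sln (0.931) and Crip2 (0.930), and Jam2 had its highest r with Jrkl at 0.822.

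Lists of related genes were counted in the same fit, where 75.2% of all tested genes were called on day 1 and 76.9% on day 3 against uninjured cells. The share called in each list lay near that background, so the counts are no result about a list. Myog was at 286 ± 157 CPM (SD, n = 6) in uninjured, 10.1 ± 7.07 (n = 8) in day 1 and 1666 ± 348 (n = 8) in day 3 libraries, with changes of −4.94 ± 0.39 and 2.55 ± 0.36 from uninjured cells (edgeR adjusted p = 3.05e-09 and 4.76e-06). Myod1, the determination factor gene, rose on day 1 (2.41 ± 0.09, edgeR adjusted p = 9.98e-17), when Mymk and Mymx were lowest. Mef2a, a partner of the myogenic factors, rose by 2.67 ± 0.13 on day 3 over uninjured cells (edgeR adjusted p = 1.86e-15). Of the 14 tested nuclear and secreted regulators, 4 rose, 6 fell and 4 did not pass on day 1 (median 0.02), and 7 rose, 5 fell and 2 did not pass on day 3 (median 0.25). Myf5 fell on both days (−1.60 ± 0.17 and −3.33 ± 0.18), as did Pax7 (−2.47 ± 0.11 and −3.83 ± 0.11).

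Among the other adhesion and recognition genes, 22 were tested. On day 1, 7 rose, 10 fell and 5 did not pass (median 0.01), and on day 3 against uninjured cells 4 rose, 11 fell and 7 did not pass (median −0.31). Cdh2, which encodes N-cadherin, rose by 2.63 ± 0.14 on day 1 and 4.16 ± 0.15 by day 3 (edgeR adjusted p = 7.74e-14 and 3.06e-17), unlike Cdh15. Boc, a receptor of the immunoglobulin family that associates with cadherins, fell by day 3 (−2.67 ± 0.13, edgeR adjusted p = 3.11e-15). The tetraspanin gene Cd81 fell on day 1 (−1.33 ± 0.07), and Cd9, another tetraspanin gene, was at −0.92 ± 0.07 (edgeR adjusted p = 1.53e-14 and 4.31e-11). Itga3, an integrin subunit gene, rose by 2.56 ± 0.13 by day 3 (edgeR adjusted p = 6.78e-15).

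The genes that act with the Adgrb receptors went both ways. Of 10 tested Elmo, Dock and Rac genes, 4 rose, 3 fell and 3 did not pass on day 1 (median 0.17), and the same counts held on day 3 against uninjured cells (median 0.27). Rac1, the small GTPase gene, rose by 0.36 ± 0.06 on day 1, and Crk, an adaptor gene, by 0.49 ± 0.07 (edgeR adjusted p = 1.64e-05 and 8.90e-07). Dock5 rose the most of this list on day 1 (4.16 ± 0.72, edgeR adjusted p = 1.31e-05). It was scarce, at 0.281 ± 0.568 CPM (SD, n = 6) in uninjured and 3.24 ± 1.90 (n = 8) in day 1 libraries. Elmo1 fell by day 3 (−2.11 ± 0.21, edgeR adjusted p = 2.58e-09). Stab2, another phosphatidylserine receptor gene of fusion that endothelial cells also express, fell on day 1 (−3.30 ± 0.45) and was at −4.08 ± 0.47 on day 3 (edgeR adjusted p = 3.82e-07 and 2.71e-08).

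Of 16 genes of actin remodelling, 9 rose, 4 fell and 3 did not pass on day 1 (median 0.43), and 8 rose, 6 fell and 2 did not pass on day 3 against uninjured cells (median 0.23). Vasp, which speeds the growth of actin filaments, rose by 2.94 ± 0.19 by day 3, and Cyfip1, a subunit of the WAVE complex, by 0.98 ± 0.08 on day 1 and 1.20 ± 0.08 by day 3 (edgeR adjusted p = 5.66e-13, 3.21e-11 and 6.47e-13). Of 15 tested other ferlin and membrane repair genes, 6 rose, 6 fell and 3 did not pass on day 1 (median −0.28), and 8 rose, 5 fell and 2 did not pass on day 3 against uninjured cells (median 0.69). Ehd1, a partner of ferlins in membrane recycling, rose by 2.13 ± 0.08 on day 1, and the annexin genes Anxa1 and Anxa2 rose by 2.77 ± 0.08 and 1.82 ± 0.06 by day 3 (edgeR adjusted p = 1.19e-16, 8.19e-19 and 3.89e-18). These lists were compared with all tested genes only through their counts and medians.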

How the data were processed

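Per the file headers, the deposited files are RSEM output with 1 row for each of 103732 transcripts and give the authors' expected counts, TPM, FPKM and effective length (another measure, in bases). The tools named, per the submitters' processing notes, are RSEM 1.3.3, STAR 2.5.2, Trimmomatic 0.33 and DESeq2 (version not given in the sources used here), with the mm10 build. Per the labels' protocols, RNA was extracted from fixed sorted cells and the library kit was SMART-seq v4. The authors' annotation release is not given in the sources used here, and positions and transcript types come from GENCODE M21 on GRCm38.

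Expected counts were summed per gene, rounded to whole numbers and fitted with edgeR 4.0.16 (R 4.3.3): TMM scaling, minimum count 10 and minimum total 15 per gene, and 6 group means, with states averaged over both times. Symbols were found for 42462 of 43430 genes. Deposited TPM ordered the genes per length and FPKM repeated that order. DESeq2 1.42.0, limma 3.58.1 (voom), other filters, scalings, length offsets and left-out libraries were alternatives. Exact permutation tests were two-sided (scipy 1.17.1). The code was tested on simulated data. The members and the 5 lists of related genes and 9 lists of markers were chosen with earlier results of these data known. Named genes were all members, up to 4 genes with the smallest p per related list and state comparison, 4 myogenic regulators, and the 3 nearest neighbours of each tested member. Of the regulators of fusion listed, 14 of 15 were found.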

Additional observations from a re-analysis of the deposited data

Results flagged for a closer look

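In groups of 4 libraries, Dixon's test set single libraries apart for 3 of the 9 members. Chance alone marks about 1 in 20 groups of continuous values, a rate that does not hold where libraries are tied at 0. Of the 33 sets of values examined, Jam3 in day 3 at ZT4 had its highest library, replicate 2, at 78.0 CPM, with the nearest other at 68.1 CPM and the lowest at 66.4 CPM. For Mymx in day 1 at ZT4 the single count of replicate 2, or 0.158 CPM, stood against 0 in the other 3 libraries. For Adgrb1 in day 1 at ZT16 the 3 counts of replicate 2, or 0.386 CPM, stood against 0 in the other 3. With the others all at 0 any count is set apart, so the Mymx and Adgrb1 flags say nothing of an outlying library.

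The effect of time on Cdh15, ZT16 against ZT4, differed between day 3 and uninjured cells by 0.86 on the log2 scale in edgeR's test of the difference (adjusted p = 0.0167). Cdh15 was lower at ZT16 in uninjured cells (426 ± 70.9 against 716 ± 132 CPM, SD, n = 3 and 3), and stood at 588 ± 132 and 542 ± 33.6 CPM (n = 4 and 4) at ZT16 and ZT4 of day 3.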

How the results depend on the processing

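The number of members called on day 1, on day 3 and between the days stayed within 1.5 times of its value in every alternative run. It ranged from 6 to 7, 5 to 7 and 6 to 7 of the members tested, and with single replicates left out it was 7, 5 to 6 and 6. The run with no filter tested all 9 members, and Adgrb3 was among those called on day 3 and between the days. The counts for ZT16 against ZT4 on day 1 and on day 3 were 0 in every alternative. Between times in uninjured cells, the 3 calls became 1 with limma voom, 5 with no filter on low counts, 1 with only the groups compared and 1 to 3 with single replicates left out. The run without uninjured ZT16 replicates 1 and 3 left 1 library in that group, so its calls on time are not counted here. For the difference in time effect on day 1 there was 1 call with DESeq2, 3 with no filter and 0 to 1 with single replicates left out. For the difference in time effect on day 3 there were 3 with DESeq2, 4 with no filter and 0 to 2 with single replicates left out. There were 0 without the 4 day 3 libraries with the most genes detected (chosen after seeing the data). No leading transcript share was called, and with single replicates left out 0 to 1 was. Cdh15 on day 3 against uninjured cells turned to −0.31 with ZT4 libraries alone. The cause of these changes was not tested. Mymx as percent of Mymk differed between day 3 and uninjured cells by 26.9 points with expected counts and by 50.0 to 52.5 with single replicates left out. The ratio was chosen after its values were seen. Its states do not overlap, so leaving out 1 library could not change its call.

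Same-numbered replicates did not deviate together over the tested genes (correlations of −0.096 to 0.097). The labels do not state that they are paired, and this check cannot exclude it. With the replicate block, 2 members were called for the difference in time effect on day 3, Jam2 being added (−1.60, adjusted p = 0.0331), and the other counts kept within 1.5 times of theirs. Of 525 alternatives for single members in the comparisons of states, 516 kept the call or the lack of one. Where neither fit passed, the direction could still change. Jam2 between the days was at 0.32 in the main fit and −0.37 in the lowest alternative. Depth limits Adgrb1, Adgrb3 and, on day 1, Mymk and Mymx.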
